A study of Mus musculus with 3 samples.

Results

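Epithelial and mesenchymal adhesion genes were followed across 3 mammary tumours through 9 genes. They were the classical cadherin genes Cdh1, Cdh2 and Cdh3, the intermediate filament gene Vim, and the transcription factor genes Snai1, Snai2, Twist1, Zeb1 and Zeb2. Every probe set that the array annotation assigned to exactly 1 of these genes was taken, which gave 13 probe sets out of 22626 and 9 genes out of 12393. Each tumour came from a female NMRI mouse with the WAP-SVT/t transgene, in which regulatory DNA of Wap, a whey protein gene, drives simian virus 40 T and t antigens in the mammary epithelium. All 3 tumours form 1 group that shares strain, sex, transgene and tissue, with 1 array each. The age of the mice is not given in the sources used here, and no tumour-free gland was analysed here. RNA came from whole tumour tissue, which holds host stroma besides the transgenic epithelium. Tumours 1 and 2 share the first number of their titles and tumour 3 does not, for reasons not given in the sources used here. Their values may therefore not be independent. In such bulk tissue, fewer cells of a type and less RNA per cell cannot be told apart.

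Classical cadherins join neighbouring cells by binding the same cadherin on the next cell, and their tails hold the actin cytoskeleton through catenins. Epithelial-mesenchymal transition is a reversible change in which epithelial cells lose E-cadherin (Cdh1) junctions and take up mesenchymal traits, such as N-cadherin (Cdh2) and vimentin filaments. Factors of the SNAIL, TWIST and ZEB families drive it, and SNAIL and ZEB proteins bind E-box motifs in promoters such as that of Cdh1. In the mammary gland E-cadherin marks luminal cells and P-cadherin (Cdh3) marks myoepithelial cells, while vimentin is abundant in stromal cells.

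A level is the log2 of a quantile normalized intensity plus 50, and intensities are those of the deposited table. Folds were taken on the log2 scale with its offset, which understates the difference of dim genes. A gene passed the low-signal filter when its mean level reached 7.40, the median of all probe sets, which corresponds to an intensity of 119. Probe sets differ in brightness for reasons other than transcript number, so levels are compared between tumours and not between genes. With 1 array per tumour no difference has a replicate check or a p-value, and 3 arrays limit the precision.

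The arrays had similar overall brightness, with median intensities from 111 to 120. The simple epithelial genes Krt8 and Epcam were bright in all tumours, with Krt8 at 12.48, 12.59 and 12.13 and the epithelial adhesion gene Epcam at 12.08, 12.69 and 12.46 in tumours 1, 2 and 3. Other genes of the same luminal list were not, since Muc1 and Cldn4 had intensities of 56 and 111 in tumour 3, below the floor. The array of tumour 3 stood apart in its controls for 18S ribosomal RNA. There the 3′ over 5′ intensity ratio was 12.7, against 0.500 in tumour 1 and 0.397 in tumour 2. The same ratio for Gapdh and Actb lay between 0.809 and 1.26 on all arrays. Every value that sets tumour 3 apart carries this difference with it, and its part in those values was not tested.

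Cdh1, which encodes E-cadherin, was bright in every tumour and brightest in tumour 3. The table gave intensities of 1313, 1403 and 2793 in tumours 1, 2 and 3. Tumours 1 and 2 were alike and tumour 3 lay 1.84-fold above tumour 2. The mean level was 10.79 ± 0.52 (SD, n = 3), and highest and lowest tumour differed 1.89-fold. Without quantile normalization the same range came to 1.06 on the log2 scale, and with array medians subtracted to 1.03, so these scalings put it just past 2-fold. Cdh1 had 1 probe set, so no second measurement on the array stands beside it.

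Cdh2, which encodes the N-cadherin of neural and mesenchymal cells, was dim in tumour 1 and higher in tumours 2 and 3. Probe set 1418815_at had intensities of 15, 197 and 281 in tumours 1, 2 and 3. Levels of 6.04, 7.89 and 8.40 put tumour 1 3.61-fold below tumour 2, and tumour 3 was 1.42-fold above tumour 2. The whole range was 5.12-fold, the widest of the 9 genes. The second probe set, 1449244_at, kept this order with intensities of 16, 112 and 152 and a 3.04-fold range. Both Cdh2 probe sets share their source sequence, so they are not independent of each other. Tumour 1 was at least 2-fold below both others in 1.09% of the 6952 genes past the filter. Cdh2 passed the filter only through tumours 2 and 3, so it belonged to these genes because of the tumours in which it was high.

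Cdh3, which encodes P-cadherin, stayed below the floor in every tumour, with intensities of 56, 102 and 35. Tumour 2 was highest and tumour 3 lowest, 1.77-fold apart, which is a small difference at this signal. Cdh3 precedes Cdh1 directly in the gene order of chromosome 8, and the tumour in which Cdh1 was highest was the one in which Cdh3 was lowest.

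Vim, which encodes the filament protein of mesenchymal cells, was bright in all tumours, but its probe sets did not rank them alike. Probe set 1450641_at, the brightest, had intensities of 2100, 3325 and 2342, with tumour 2 1.57-fold above tumour 3. Probe set 1438118_x_at rose from 795 in tumour 1 through 1473 in tumour 2 to 2130 in tumour 3. Probe set 1456292_a_at had the same order, at 570, 1114 and 1331. All 3 probe sets were lowest in tumour 1, by 1.02-fold, 1.76-fold and 1.81-fold below the next tumour. Both that placed tumour 3 on top carry a suffix in their ID and share 1 source accession, AV147875, so they are not independent of each other. Among 504 genes with 3 probe sets past the filter, 37.5% had the same lowest tumour and 36.7% the same highest tumour in all of them.

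Zeb1, a zinc finger and homeodomain repressor, was raised in tumour 2. Its probe set 1418926_at had intensities of 117, 442 and 123 in tumours 1, 2 and 3. Tumours 1 and 3 lay at the floor, with levels of 7.42 and 7.44, and tumour 2 was at 8.89, 2.72-fold above tumour 3. Among genes past the filter, 2.26% had tumour 2 raised at least 2-fold over each of the others. A second probe set, 1420243_at, gave intensities of 1, 1 and 4 at the bottom of the scale in every tumour. Its partner Zeb2, with intensities of 52, 54 and 55, was level across the tumours and below the floor, and its order changed with the scaling.

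Twist1, a basic helix-loop-helix factor, stood out in tumour 3. Its intensities were 29, 34 and 206, so tumours 1 and 2 were alike and below the floor. Tumour 3, at a level of 8.03, was 3.15-fold above tumour 2. Among all 12393 genes, with no filter, 1.36% had tumour 3 raised at least 2-fold over each of the others. The mean of Twist1 did not reach the floor.

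Snai1, a zinc finger repressor of Cdh1, peaked in tumour 2 and was dimmest in tumour 3. Its intensities were 68, 172 and 35, and it exceeded the floor in tumour 2 alone. The range was 2.56-fold, and tumour 2 was 1.76-fold above tumour 1. With an offset of 100 the range of Snai1 was 0.98 on the log2 scale. Its relative Snai2, at intensities of 35, 42 and 50, was below the floor throughout and differed 1.13-fold.

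**Figure D1:**
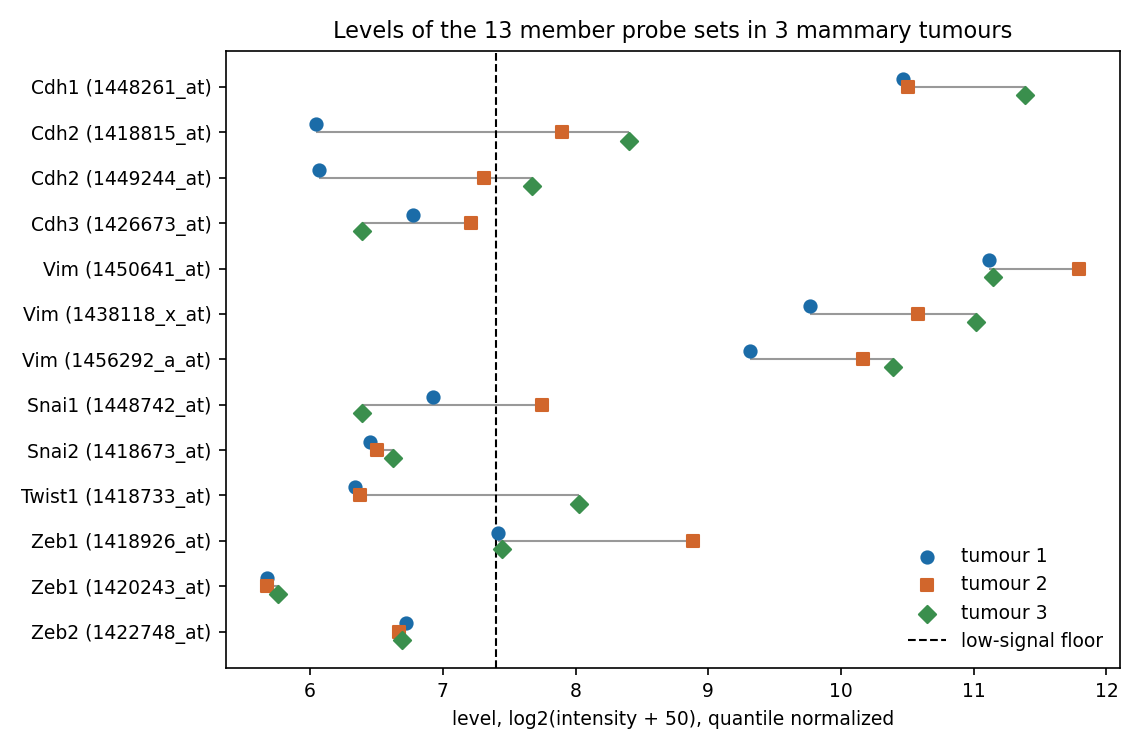
Levels, as log2(intensity + 50) after quantile normalization, of the 13 member probe sets in tumours 1, 2 and 3, with 1 marker per array, a grey line over the range and a dashed line at the low-signal floor of 7.40. Cdh1 and Vim lie far above the floor in all tumours, Cdh2 crosses it between tumour 1 and the others, and Twist1, Snai1 and Zeb1 each have 1 raised tumour.

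Promoter windows are shown for Snai1, Twist1 and Vim, members that differed between tumours. RefSeq's table for build GRCm38.p6 held windows for 4 of the 9 genes. The fourth was Zeb2, which hardly varied and is not shown. Each sequence covers the 250 bases upstream of the annotated start site on the plus strand, 5′ to 3′, and capitals mark E-boxes (CANNTG) and TATA motifs (TATAAA) found on either strand. The windows are Snai1 at chr2:167537945-167538194, Twist1 at chr12:33957421-33957670 and Vim at chr2:13574061-13574310.
Snai1: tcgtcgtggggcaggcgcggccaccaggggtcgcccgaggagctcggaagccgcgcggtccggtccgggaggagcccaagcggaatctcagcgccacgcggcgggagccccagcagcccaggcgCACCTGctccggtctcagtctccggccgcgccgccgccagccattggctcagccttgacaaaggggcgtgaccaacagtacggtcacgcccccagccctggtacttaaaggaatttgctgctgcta
Twist1: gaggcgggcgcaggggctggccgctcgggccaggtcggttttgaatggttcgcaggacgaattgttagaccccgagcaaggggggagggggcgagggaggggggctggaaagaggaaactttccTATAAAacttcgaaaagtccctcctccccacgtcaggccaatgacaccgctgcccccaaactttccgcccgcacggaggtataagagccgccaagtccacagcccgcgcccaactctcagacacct
Vim: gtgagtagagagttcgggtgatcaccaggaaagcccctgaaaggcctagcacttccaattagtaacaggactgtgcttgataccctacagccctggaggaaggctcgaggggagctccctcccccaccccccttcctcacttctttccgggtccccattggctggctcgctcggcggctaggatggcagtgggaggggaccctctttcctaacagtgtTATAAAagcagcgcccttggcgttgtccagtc
The Snai1 window held 1 E-box, CACCTG, which begins 126 bases upstream of the start site and is of the kind that SNAIL and ZEB proteins bind. CACCTG or its reverse complement CAGGTG occurs in 17.2% of 32851 windows of the same length, and any CANNTG in 66.2%. The latter includes the former. TATAAA began 32 bases upstream in Vim and 126 bases upstream in Twist1, and it or its reverse complement TTTATA occurs in 12.4% of windows. No CANNTG was in the windows of Twist1 or Vim. These matches describe letters in a window, and no binding was measured.

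Set beside the array as a whole, the members split into level and variable genes. Of the 9 genes, 4 passed the filter (Cdh1, Cdh2, Vim and Zeb1), and 2 of these, Cdh2 and Zeb1, differed at least 2-fold between highest and lowest tumour. Among all genes past the filter 24.8% did. Vim differed 1.60-fold by its brightest probe set, which was the one counted, and 2.38-fold and 2.11-fold by its 2 others past the filter. Of the 5 members below the filter, Twist1 and Snai1 differed at least 2-fold, where 6.95% of all genes below the filter did. Over all 12393 genes this share was 16.9%. With so few genes these counts are descriptions. Signal below the floor leaves little room for a measured difference, so the level course of Snai2 and Zeb2 does not show that their transcripts were equal. The median range of the 4 members past the filter was 1.20, against 0.66 for all genes past it. For all 9 members it was 0.92, against 0.50 for all genes. Cdh2 counted among the 4 only through tumours 2 and 3, in which it was high. With an offset of 16 Cdh2 fell below the filter. The median range of the 3 members left was then 0.94, against 0.71 for all genes past the filter, and 1 of the 3 differed at least 2-fold.

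**Figure D2:**
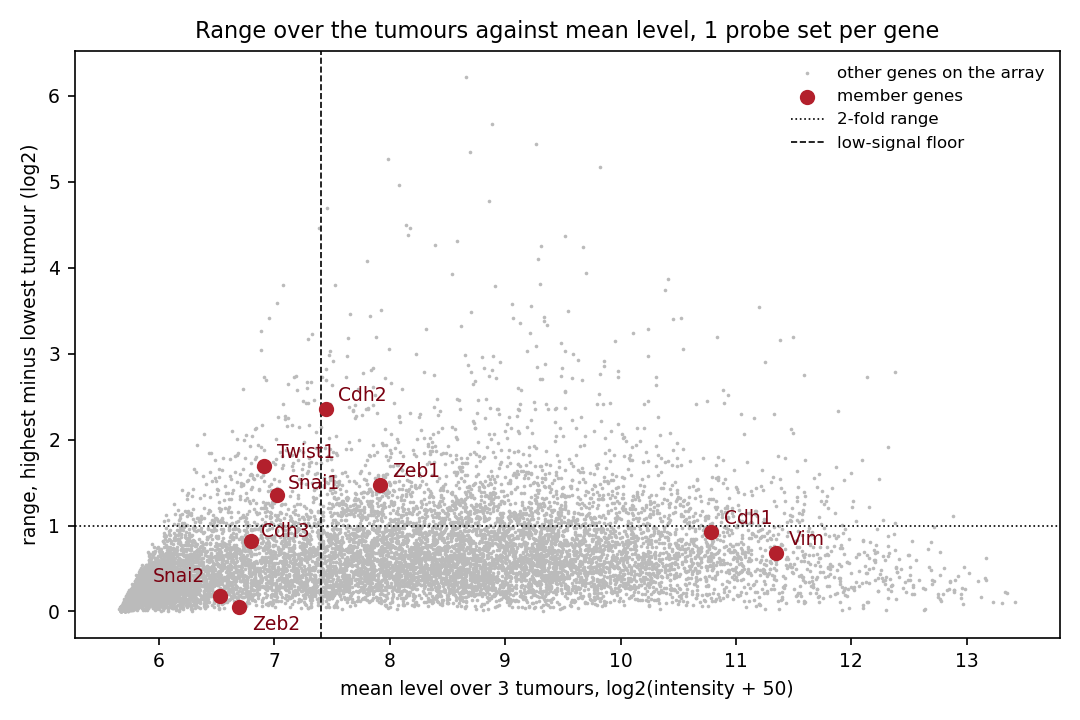
Range between the highest and lowest tumour (log2) against mean level over 3 tumours (log2(intensity + 50)) for 12393 genes, with the 9 members in red, a dotted line at a 2-fold range and a dashed line at the low-signal floor. Cdh2, Twist1, Zeb1 and Snai1 lie above the 2-fold line, bright Cdh1 lies just below it at 0.92, and Vim, at 0.68, lies near the median of all genes past the filter.

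Tumour 1 was the low tumour for most members. It was lowest for 6 of the 9 genes (Cdh1, Cdh2, Vim, Snai2, Twist1 and Zeb1), where 29.9% of all genes were lowest in tumour 1. In Cdh1, Twist1 and Zeb1, and in Vim by its brightest probe set, it was at most 1.03-fold below the next tumour. The 2 other Vim probe sets put it 1.76-fold and 1.81-fold below. In Cdh2 it was clearly apart. Tumour 2 was highest for Cdh3, Vim, Snai1 and Zeb1, and tumour 3 for Cdh1, Cdh2, Snai2 and Twist1. With the mean of its probe sets Vim was level between tumours 2 and 3, at 10.85 in each, and at 10.06 in tumour 1. The highest Cdh2 and Twist1 levels thus fell in the tumour with the highest Cdh1 level, and the highest Snai1 and Zeb1 levels fell in another tumour. Tumour 1, with the lowest Cdh1 level, was highest for none of the 5 transcription factor genes except Zeb2, which hardly varied and whose order changed with the scaling.

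Genes of catenins and desmosomes did not share 1 order across the tumours. In the list of catenin and desmosome genes, 13 of 14 on the array passed the filter. Of these 5, or 38.5%, differed at least 2-fold, against 24.8% of all genes past the filter. The median range was 0.83, against 0.66. Tumour 2 was highest for 8 of the 13, where 39.2% of all genes past the filter were, and tumour 3 was lowest for 7, against 44.2%. Tumour 1, the lowest tumour of Cdh1 and Cdh2, was lowest for 6, against 28.7%. With probe sets averaged, tumour 2 was highest for 5 of 11 and tumour 1 was lowest for 3. Plakophilin 1 (Pkp1), a desmosomal plaque protein gene, was at 8.61, 10.83 and 10.06 in tumours 1, 2 and 3. Pkp3 had a 2.76-fold range, the plakoglobin gene Jup a 2.49-fold range and the vinculin gene Vcl a 2.41-fold range, and these 3 were lowest in tumour 3, where Cdh1 was highest. The p120 catenin gene Ctnnd1, whose protein holds cadherins at the membrane, differed 1.17-fold and Pkp2 1.12-fold. The value of Jup rested on a suffixed probe set. With the mean of probe sets the median range of this list was 0.39.

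Epithelial junction genes and their regulators had a median range near that of all genes. Of 26 on the array 23 passed the filter. Of these 8, or 34.8%, differed at least 2-fold, against 24.8% of all genes past the filter. The median range was 0.63, against 0.66. The tight junction gene Cldn4 was at 10.89, 9.44 and 7.34 and the membrane protease gene Prss8 at 9.57, 8.95 and 7.82, both lowest in tumour 3. Klf4, a transcription factor gene, ran the other way, at 7.31, 7.88 and 9.57. Cldn3 fell 2.71-fold from its highest level in tumour 1 to its lowest in tumour 2, and its 3 other probe sets past the filter agreed. The epithelial factor gene Elf3 differed 1.04-fold and the tricellular junction gene Marveld2 1.26-fold. Tumour 1 was highest for 12 of the 23, against 30.5% of all genes past the filter.

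Mesenchymal readouts other than Vim and Cdh2 were mostly low in tumour 3. Of 17 past the filter, 12 were lowest in tumour 3, where 44.2% of all genes past the filter were. The 17 genes differed at least 2-fold in 9 cases, or 52.9%, against 24.8% of all genes past the filter. Their median range was 1.02, against 0.66. Between tumours 1 and 2 alone the median range was 0.29, against 0.34 for all genes past the filter. Fibronectin (Fn1), a matrix protein gene, was at 11.34, 13.10 and 11.84, and the hyaluronan receptor gene Cd44 at 9.31, 11.25 and 9.84, both highest in tumour 2. A second Cd44 probe set did not place tumour 2 highest. The collagenase gene Mmp2 was at 9.53, 9.97 and 8.28 and the matrix gene Sparc at 12.15, 12.57 and 10.89, both lowest in tumour 3. Mmp3 differed 1.19-fold and Mmp14 1.45-fold. In tumour 3, therefore, Cdh2 and Twist1 had their highest levels beside low levels of most other genes of this kind.

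Among other transcription factors and corepressors linked to the transition, 16 of 21 passed the filter. Of these 8, or 50%, differed at least 2-fold, against 24.8% of all genes past the filter. The median range was 0.99, against 0.66. Tumour 3 was highest for 9 of the 16, against 30.3% of all genes past the filter, and tumour 1 was lowest for 8, against 28.7%. Between tumours 1 and 2 alone the median range was 0.25, against 0.34 for all genes past the filter. The chromatin factor gene Hmga2 was at 8.28, 10.14 and 8.90, highest in tumour 2 like Zeb1. Lef1, a Wnt pathway factor gene that would not have passed without tumour 2, was at 7.74, 8.31 and 6.46, Sox9 at 7.71, 7.43 and 8.81, and the deacetylase gene Hdac1 at 9.81, 10.32 and 11.18. The CtBP corepressors, which ZEB proteins recruit, differed 1.17-fold (Ctbp1) and 1.16-fold (Ctbp2). The related factor genes Snai3, Twist2, Foxc2, Gsc and Fosl1 were below the filter.

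Other cadherin genes were mostly dim. Of 14 on the array, 12 were below the filter. The endothelial cadherin gene Cdh5 was at 7.78, 7.98 and 6.61 and Cdh11, a cadherin of mesenchymal cells, at 8.04, 8.42 and 7.52. Both had their lowest level in tumour 3, unlike Cdh1 and Cdh2, and Cdh5 would not have passed without tumour 2.

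Markers of stromal cells, which also make vimentin and several of these factors, moved with the tumours too. The lists overlap, so they are not separate sets of genes. Col1a1, Col1a2 and Col3a1 are both mesenchymal readouts and fibroblast genes, and Acta2 is in the mesenchymal, basal and pericyte lists. Cdh5 is also an endothelial gene, and Epcam and Cldn4 are in both the junction and the luminal lists. All 14 fibroblast genes passed the filter. Tumour 2 was the highest for 10 of them and tumour 3 the lowest for 10, against 39.2% and 44.2% of all genes past the filter. With array medians subtracted, 8 were highest in tumour 2, and with probe sets averaged 7 of 13. Their summed intensity was 17318, 19456 and 13471 in tumours 1, 2 and 3. Every such sum is over all genes of a list on the array, those below the filter included. Lum had a 3.01-fold and Fap a 2.62-fold range, both highest in tumour 2. Tumour 3 was the lowest for 12 of the 13 macrophage genes that passed, and all 14 on the array summed to 26666, 25992 and 14755. C1qc was at 11.62, 11.10 and 9.82. Cd163 was the exception, at 6.47, 7.12 and 9.91, and would not have passed without tumour 3. Tumour 3 was also the lowest for 4 of 4 endothelial genes that passed, among them Esam (2.27-fold), and all 10 on the array summed to 1072, 1555 and 796. With no filter, tumour 3 was the lowest for 6 of the 10 endothelial genes. Below the filter, Kdr, Vwf and Flt1 were dimmest in tumour 1, and Pecam1 was dimmest in tumour 2 and brightest in tumour 3. Pericyte and smooth muscle genes were also lowest there in 4 of 4 (Rgs5 1.85-fold, and Mcam from 8.73 to 7.73), and all 8 on the array summed to 3157, 3782 and 2424. The part of these cells in the Vim, Zeb1, Snai1 and Twist1 values was not tested. Of the markers that passed, most fibroblast and macrophage genes and all 4 endothelial genes had their lowest level in tumour 3, where Twist1 and Cdh2 were highest.

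Fat markers were raised in tumour 3. Adipocyte genes were highest there in 4 of 4 past the filter, against 30.3% of all genes past it, and all 6 on the array summed to 1119, 1212 and 7231. Adipoq, 1 of the 4, was at 6.90, 7.14 and 9.52 and would not have passed without tumour 3. Fabp4 had a 7.99-fold and Car3 a 6.45-fold range. The skeletal muscle list had 1 gene past the filter, Acta1, at 7.49, 6.45 and 8.48, which would not have passed without tumour 3. All 7 muscle genes on the array summed to 321, 129 and 633. Tumour 3 was the lowest for the 3 nerve and Schwann cell genes that passed (Ncam1 2.63-fold, Sox10 1.57-fold), where 44.2% of all genes past the filter were. All 6 on the array summed to 3986, 4402 and 2892, of which Sox10 alone gave 3439, 3534 and 2505. With no filter, tumour 1 was the lowest for 3 of the 6 and tumour 3 for 3. Fat, muscle and nerve were considered because N-cadherin or TWIST1 is known in these tissues or their precursors, and their part in the Cdh2 and Twist1 values was not tested.

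Epithelial compartments and lymphocytes completed the marker lists. Tumour 3 was the lowest for 7 of 9 luminal genes that passed, against 44.2% of all genes past the filter, among them Muc1 (10.26, 10.96 and 6.71). The list summed to 26901, 27246 and 22162. Of 13 basal genes 6 passed, 5 of them highest in tumour 2 (Lamb3 6.68-fold, Lama3 4.41-fold), against 39.2% of all genes past the filter. All 13 summed to 5199, 6779 and 3775. Lama3 would not have passed without tumour 2. With no filter, 6 of the 13 were highest in tumour 1 and 6 in tumour 2. The basal keratin genes Krt5, Krt14 and Krt17 and the basal factor gene Trp63 were below the filter, as was the myoepithelial cadherin Cdh3, and these keratin genes and Trp63 were brightest in tumour 1. Lactation genes past the filter numbered 4 (Btn1a1 9.16-fold, Csn1s1 2.31-fold), and all 6 on the array summed to 16827, 12549 and 16312. Btn1a1 would not have passed without tumour 1. The T and NK cell list and the B and plasma cell list had 1 gene each past the filter, Thy1 (2.38-fold) and Jchain (1.19-fold). The 10 T and NK cell genes on the array summed to 820, 880 and 327, and the 5 B and plasma cell genes to 330, 363 and 210. Thy1, which is also in the fibroblast list, alone gave 634, 551 and 238 of the T and NK cell sums. In none of the marker lists was a gene listed at 0 in any tumour.

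**Figure D3:**
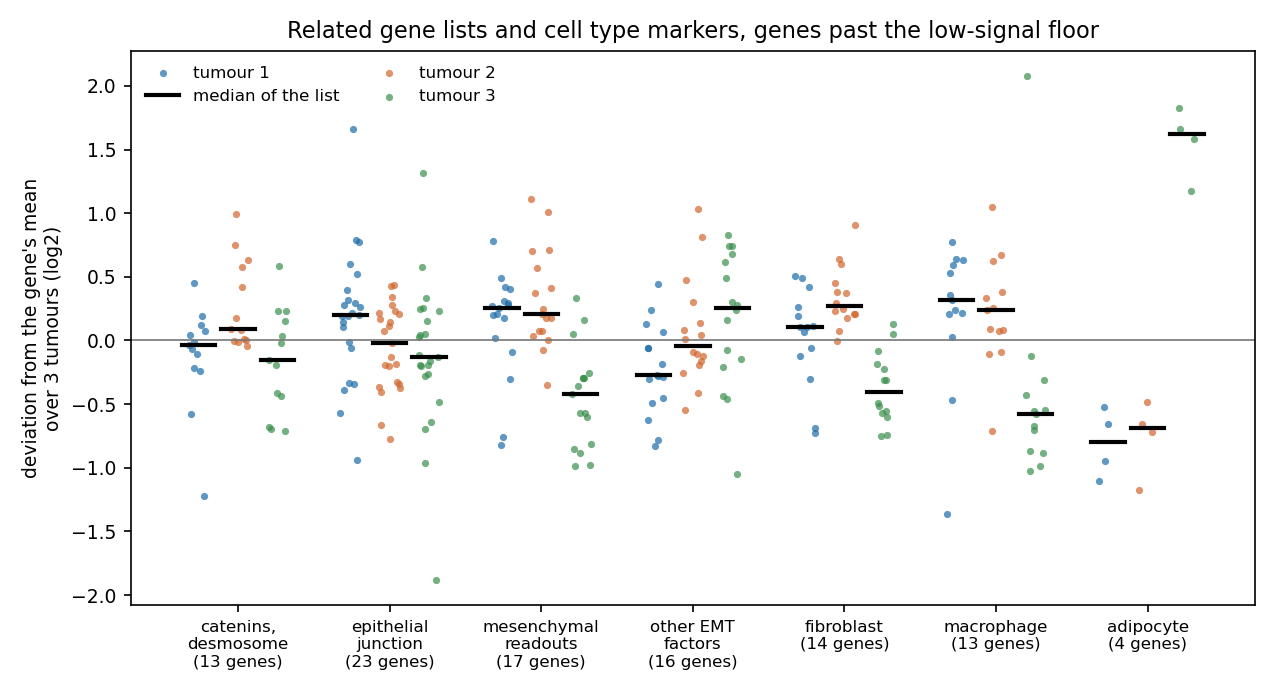
Deviation of each gene past the low-signal filter from its own mean over 3 tumours (log2), by list and tumour, with the median of each list and tumour as a black bar. Tumour 3 lies low in the mesenchymal, fibroblast and macrophage lists, with medians of -0.42, -0.40 and -0.58, and high in the adipocyte list, at 1.63. The mesenchymal and fibroblast lists share Col1a1, Col1a2 and Col3a1.

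Chromosomal neighbours were compared because cadherin genes lie in clusters. Gene order came from RefSeq (GRCm38.p6), and the 5 nearest genes past the filter on each side were taken. None of the 10 neighbours of Cdh1 differed at least 2-fold, where 24.8% of all genes past the filter did. Of the 10, 2 were highest in tumour 3, against 30.3% of all genes past the filter. The neighbours of Cdh2 on chromosome 18 differed at least 2-fold in 4 of 10 cases, against the same 24.8%. Of these 10, 6 were lowest in tumour 1, where 28.7% of genes past the filter were. The nearest on one side, the desmosomal cadherin genes Dsc2 and Dsg2, had the order of Cdh2. Dsc2 was at 6.90, 7.48 and 8.06 and Dsg2 at 9.59, 9.84 and 10.07 in tumours 1, 2 and 3, and Dsc2 would not have passed without tumour 3. Of the 2 other probe sets of Dsg2 past the filter, 1 had the same highest and 1 the same lowest tumour. B4galt6 (7.45, 9.93 and 9.12) and Mapre2 (7.75, 9.19 and 9.13), further along, were also low in tumour 1. Around Zeb1, also on chromosome 18, 6 of 8 neighbours were highest in tumour 2, where 39.2% of genes past the filter were. The neighbours of Twist1 were highest in tumour 3 in 2 of 10 cases, against 30.3%, and those of Snai1 highest in tumour 2 in 1 of 10, against 39.2%.

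**Figure D4:**
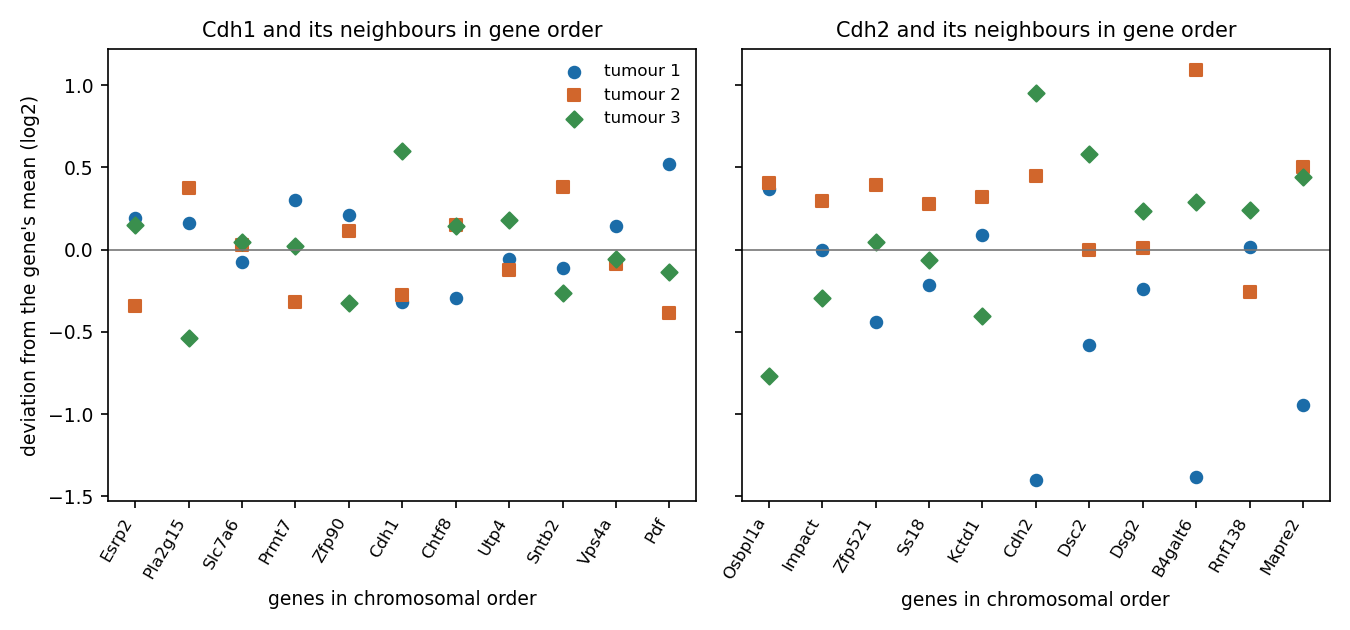
Deviation from each gene's mean over 3 tumours (log2) for Cdh1 (left) and Cdh2 (right) and the 5 nearest genes past the low-signal filter on each side, in chromosomal order, with 1 marker per tumour. Tumour 3 is the highest for Cdh1 and for 2 of its 10 neighbours, against 30.3% of all genes past the filter. None of these neighbours differs at least 2-fold, against 24.8%. Tumour 1 is the lowest for Cdh2 and for 6 of its 10 neighbours, against 28.7%.

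Genes with the most similar course were found for the members past the filter with a range of at least 2-fold, by the distance between deviations from each gene's mean over the 3 tumours. Nearest to Cdh2 were Emid1 (8.37, 10.24 and 10.78; distance 0.04), Col9a2 (distance 0.13) and the growth-arrest gene Gadd45a (distance 0.25). They were the only 3 of 6951 genes within a distance of 0.25. Nearest to Zeb1 were the zinc transporter gene Slc39a8 (7.05, 8.57 and 7.05; distance 0.05), the cyclooxygenase gene Ptgs2 (distance 0.06) and Prickle1 (distance 0.08), and 26 genes lay within 0.25. Slc39a8 and Ptgs2 were below the floor in tumours 1 and 3 and would not have passed without tumour 2. With 3 arrays many genes share a course, so the likeness to a member is a description.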

How the data were processed

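Biotinylated cRNA made from RNAzol-extracted RNA was hybridised to 1 array per tumour, per the labels' protocols. The deposited table holds 1 intensity per probe set on a linear scale, inferred from the whole, non-negative values. How the authors summarised, background-corrected or scaled these intensities is not given in the sources used here.

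Of 22690 probe sets 64 controls were left out, and 22626 were quantile normalized over the 3 arrays before log2(intensity + 50). The platform annotation named 1 gene for 20380 probe sets, several for 691 and none for 1555. Each gene was represented by the brightest of its probe sets on average. Genes with a mean at or above the median probe set, 6952 in all, passed the filter.

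The 1 group has no control, so no test was run, and n counts tumours. All tumours were numbered in accession order. Members and lists were chosen with earlier results of these data known. Named genes were all members, the 4 widest and 2 narrowest ranges of each of 5 related lists, the 2 widest of each of 12 cell type lists, and the 3 nearest courses. The epithelial markers Krt8 and Epcam, the endothelial genes below the filter, Adipoq, the basal genes below the filter, the factor genes below it and the chromosomal neighbours were added after their values were seen. Alternatives changed the scaling, the offset (16 and 100), the probe set rule and the filter, or left out 1 tumour. Scripts were tested on simulated data. Python 3.11.15, numpy 2.4.6, pandas 2.3.3 and matplotlib 3.10.9 were used.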

Additional observations from a re-analysis of the deposited data

How the results depend on the processing

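The differences of the single members kept their direction under every alternative run, except that of Zeb2, which was -0.028 with intensities as deposited. That of Snai2 widened to 0.28 with an offset of 16. The number of members past the filter and at least 2-fold apart, 2 in the reported setting, was 3 with intensities as deposited and 3 with array medians subtracted, where Cdh1 was added. It was 1 with an offset of 16, where Cdh2 fell below the filter. It was 0 when probe sets were averaged, since Cdh2 and Zeb1, each with a dimmer second probe set, then fell below the filter. It was 4 of 9 with no low-signal filter, 0 with the filter at the 75th percentile, which kept Cdh1 and Vim only, and 0 to 1 with 1 tumour left out. The lowest and highest median ranges with 1 tumour left out, which are then ranges over 2 arrays, were 0.031 and 0.76 for the members (0.031 without tumour 2), 0.29 and 0.72 for mesenchymal readouts (0.29 without tumour 3), 0.25 and 0.81 for other transcription factors and corepressors (0.25 without tumour 3) and 0.38 and 0.90 for other cadherins (0.38 without tumour 3). Over all genes past the filter the median range was 0.47, 0.42 and 0.34 without tumours 1, 2 and 3. Without tumour 2 only 3 members passed, since Cdh2 then fell below the filter. The median range of catenin and desmosome genes was 0.39 with averaged probe sets, and that of other cadherins 0.43 with no low-signal filter. Of all comparisons of a median or count with an alternative, 62 of 76 stayed within the spread between tumours or within 1.5 times the count. No paired analysis was possible because the samples form 1 group. Signal near or below the floor limits Snai1, Snai2, Twist1, Zeb2 and Cdh3. It also limits Cdh2 in tumour 1 and Zeb1 in tumours 1 and 3.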

Other observations

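The values of some corepressor and chromatin genes of the lists above were not given there. The deacetylase gene Hdac2 was at 8.34, 8.57 and 9.57 in tumours 1, 2 and 3, and the histone demethylase gene Kdm1a, a partner of SNAI1, at 9.96, 10.07 and 10.75. The polycomb genes Ezh2 and Suz12 were at 9.71, 9.57 and 10.67 and at 9.29, 9.58 and 10.37. These 4 genes were named after their values were seen, and each had its highest level in tumour 3. Ctbp1 and Ctbp2, corepressor genes of the same list, had theirs in tumour 2 and their lowest in tumour 3, but their ranges were small, at 1.17-fold and 1.16-fold. Another probe set of Ctbp2 past the filter had neither the same highest nor the same lowest tumour. The mesenchymal factor gene Foxc2, also named so, had intensities of 6, 70 and 120 and thus the order of Cdh2, but its mean was below the floor.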
